A study of Mus musculus with 9 samples.

Results

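Coenzyme Q (ubiquinone) genes were examined in left ventricle RNA of 9 mice. The 10 genes taken were Coq2, Coq3, Coq4, Coq5, Coq6, Coq7, Coq8a, Coq9, Coq10a and Coq10b, chosen by symbol among the 22036 annotated genes of the deposited table. Each symbol matched 1 entry, and all 10 genes passed the filter on low counts that left 14160 genes for testing. The name "synthesis genes" suits 8 of them: Coq10a and Coq10b encode proteins that bind coenzyme Q and are needed for its work in respiration, and are not known as enzymes of its synthesis.

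The study compared 3 groups of wild-type (WT) mice with 3 biological replicates each. ND+AAV-CON mice had a control vector and the diet called ND in the labels (taken to mean normal diet). HFD+AAV-CON mice had the same control vector with the HFD diet (taken to mean high-fat diet). HFD+AAV-BCKDK mice had the HFD diet and a vector named for BCKDK, the kinase that switches off the branched-chain keto acid dehydrogenase. AAV is adeno-associated virus, a gene delivery vector, so every mouse had received a virus and no group lacked one. The sources used here do not give age, sex, diet composition, diet duration, vector dose, or the promoter that drives the vector. The question in the series title is whether BCKDK changes heart remodelling in obesity through reactive oxygen made by mitochondria.

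Levels are given as CPM, a library's counts scaled to a common depth after TMM normalization. Libraries held 32803233 to 45483044 counts in annotated genes, of which the 10 genes took 33911 to 57106. Mitochondrially encoded genes held 42.1% to 45.7% of the counts in ND+AAV-CON, 26.1% to 39.9% in HFD+AAV-CON and 45.0% to 47.6% in HFD+AAV-BCKDK. Bckdk, the gene named by the vector, stood at 73.2 ± 4.69, 50.5 ± 14.0 and 119 ± 7.50 CPM in the 3 groups (SD, n = 3). HFD+AAV-CON replicate 3 stood apart from the other libraries. Its level lay between those of the other HFD+AAV-CON libraries for 64.1% of the genes tested, against 14.8% to 37.1% for any other library, and for all 10 coenzyme Q genes. Loci without a gene name held 1.02% of its counts, against 4.75% to 6.01% elsewhere. Whether it is independent of the other HFD+AAV-CON libraries was not tested. Counts of genes called are therefore given with and without it.

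Coenzyme Q is a lipid of the inner mitochondrial membrane that carries electrons from complex I, complex II and other dehydrogenases to complex III, and it also acts as an antioxidant. Its ring comes from tyrosine and its long tail from the mevalonate pathway. Coq2 joins the tail to the ring, and Coq3, Coq5, Coq6 and Coq7 then modify the ring in a complex held together with Coq4 and Coq9 and assisted by the kinase-like protein Coq8a. The heart, which lives on oxidative metabolism, is rich in it.

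The start regions of 4 of these genes are shown. They belong to some of the genes that moved together in the comparisons below (Coq8a, Coq3 and Coq10a) and to the gene that did not (Coq10b). Each window runs from 250 bases before to 50 bases after a RefSeq start (build GRCm38.p6), 5′ to 3′ on the gene's strand. Capitals mark matches on either strand to the NRF1 core GCGCANGCG and to the CCAAT box CCAAT, whose reverse complement reads as ATTGG in these lines. The windows are chr1:180195971-180196270 on the minus strand for Coq8a, chr4:21879603-21879902 on the plus strand for Coq3, chr10:128368931-128369230 on the minus strand for Coq10a and chr1:55052520-55052819 on the plus strand for Coq10b.
Coq8a: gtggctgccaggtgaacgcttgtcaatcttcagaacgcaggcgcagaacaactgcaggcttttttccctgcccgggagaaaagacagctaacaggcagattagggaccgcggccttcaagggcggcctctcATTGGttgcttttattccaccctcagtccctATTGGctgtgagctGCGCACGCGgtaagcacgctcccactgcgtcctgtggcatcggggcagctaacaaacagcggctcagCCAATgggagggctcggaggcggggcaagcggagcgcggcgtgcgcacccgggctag
Coq3: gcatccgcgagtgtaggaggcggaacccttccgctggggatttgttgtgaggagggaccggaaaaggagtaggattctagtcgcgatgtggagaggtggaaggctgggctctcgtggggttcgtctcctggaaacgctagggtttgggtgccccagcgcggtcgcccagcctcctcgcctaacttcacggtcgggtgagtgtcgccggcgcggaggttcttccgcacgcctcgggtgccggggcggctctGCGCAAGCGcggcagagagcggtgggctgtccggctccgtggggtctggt
Coq10a: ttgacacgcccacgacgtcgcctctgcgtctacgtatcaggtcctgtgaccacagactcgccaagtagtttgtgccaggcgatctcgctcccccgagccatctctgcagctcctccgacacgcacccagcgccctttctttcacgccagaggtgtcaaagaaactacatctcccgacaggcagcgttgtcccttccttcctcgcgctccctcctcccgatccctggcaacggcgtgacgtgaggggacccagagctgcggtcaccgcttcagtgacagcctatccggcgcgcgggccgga
Coq10b: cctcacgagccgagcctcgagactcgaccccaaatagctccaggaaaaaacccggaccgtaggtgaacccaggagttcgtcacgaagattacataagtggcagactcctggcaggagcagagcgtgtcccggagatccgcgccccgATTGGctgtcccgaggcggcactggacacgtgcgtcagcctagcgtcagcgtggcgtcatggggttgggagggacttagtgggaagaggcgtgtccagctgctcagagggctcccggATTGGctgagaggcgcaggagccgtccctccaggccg

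The Coq8a window held an NRF1 core at position -74 from the start and 3 CCAAT boxes. The Coq3 window held an NRF1 core at position 1, the RefSeq start used for that window. That start lies downstream of the GENCODE M21 gene start at chr4:21879673. The end of the window was not found in a GENCODE M21 transcript of Coq3. The Coq10a window held neither motif, and the Coq10b window held 2 CCAAT boxes and no NRF1 core. RefSeq windows were matched for 9 of the 10 genes (12 windows in all), with Coq5 named only. The NRF1 core was found in 2 of the 12 windows, against 6.25% of all 32851 promoter windows, and the CCAAT box in 4 of 12, against 37.4%. Both windows with an NRF1 core, those of Coq8a and Coq3, are among the 4 shown. The other window of each of these genes held none, so the windows shown are not typical of the 12. The nuclear receptor core AGGTCA was found in 4 of 12 windows (Coq4, Coq7, Coq8a and Coq10a, the last 2 in their other window), against 16.3% of windows. The ERR motif TCAAGGTCA, which contains AGGTCA, and the ETS motif CCGGAAGT were found in 0 of 12, against 0.423% and 3.89%. These matches describe letters in a window and are not binding sites.

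All 10 genes are protein-coding, and their positions below are those of GENCODE M21 on GRCm38 (mm10). Exons of 5 genes overlap exons of a gene on the opposite strand: Coq4 with Trub2 by 921 bases, Coq8a with Cdc42bpa by 366 bases, Coq10b with E330011M16Rik by 343 bases, Coq6 with Fam161b by 128 bases and Coq9 with Ciapin1 by 38 bases. The sources used here do not say whether the counting used strand, so reads in those stretches cannot be assigned to either gene.

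Per kilobase of the longest transcript, Coq9, the lipid-binding partner of Coq7, had the highest level in ND+AAV-CON at 241 ± 19.0 CPM per kilobase (SD, n = 3). Coq10a followed at 149 ± 6.01, Coq8a at 107 ± 4.82, Coq2 at 57.5 ± 0.652 and Coq5 at 48.0 ± 4.71 CPM per kilobase, and each of these levels lay apart from its neighbour in the order. Coq7 (20.2 CPM per kilobase) and Coq3 (19.4) overlapped, as did Coq10b and Coq6, both at 15.9. Coq4 was lowest, at 4.05 ± 0.464. HFD+AAV-BCKDK had the same order, from 233 for Coq9 to 3.87 for Coq4. In HFD+AAV-CON, Coq10b moved up from eighth to the sixth place, at 16.2 CPM per kilobase, above Coq7 at 12.2, with which it overlapped.

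The first comparison asked what differed between the diets under the control vector. Of the 10 genes, 9 were lower in HFD+AAV-CON than in ND+AAV-CON, with fold changes from 0.734 for Coq2 down to 0.495 for Coq8a. Coq10b did not pass the test. The edgeR quasi-likelihood test with Benjamini-Hochberg adjustment called 43.3% of all genes tested at an adjusted p of at most 0.05, 20.6% lower and 22.7% higher. The groups did not overlap for the same 9 genes, against 55.3% of all genes. The median log2 fold change was -0.67 for the 10 genes and -0.0018 for all genes tested. With HFD+AAV-CON replicate 3 left out, 5 of 10 were called lower (Coq3, Coq5, Coq8a, Coq9 and Coq10a) and all 9 kept their direction, with a median log2 fold change of -0.62 for the 10 genes. All genes called then numbered 4050, against 6134, with 1724 of 14325 called lower. The median of the 10 genes was -0.47 without HFD+AAV-CON replicate 1 and -0.92 without HFD+AAV-CON replicate 2. Leaving out ND+AAV-CON replicate 2 gave 5 of the 10 called lower, against 1857 of 14390 genes. There were 6 without HFD+AAV-CON replicate 1 (2055 of 14240 genes), 9 without HFD+AAV-CON replicate 2 (3689 of 14403), and 7 or 8 otherwise. Coq3, Coq5, Coq8a, Coq9 and Coq10a were called in each of the 9 fits that left out 1 library. In the same comparison 7 of 10 cardiomyocyte markers were lower and all 8 macrophage markers were higher, against 1 and 8 without HFD+AAV-CON replicate 3. Their part in the differences of the coenzyme Q genes was not tested, and in bulk tissue fewer cells of a type and less RNA per cell cannot be told apart.

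The second comparison asked what differed between the vectors under the HFD diet. The same 9 genes were higher in HFD+AAV-BCKDK than in HFD+AAV-CON, with fold changes from 1.42 for Coq4 to 1.75 for Coq9, and Coq10b again did not pass. Of all genes tested, 38.2% were called, 20.9% lower and 17.3% higher. The groups did not overlap for 7 of the 10 genes, against 51.2% of all genes. The median log2 fold change was 0.64 for the 10 genes and -0.01 for all genes. When HFD+AAV-CON replicate 3 was left out only Coq3 was called, and the same held without HFD+AAV-BCKDK replicate 1. All genes called then numbered 2847 and 3194, against 5410. Called higher were 984 of 14325 genes and 1115 of 14431. Without HFD+AAV-CON replicate 3 the median log2 fold change of the 10 genes was 0.61. The log2 fold change was then 0.80 for Coq9 and 0.66 for Coq8a, against 0.81 and 0.67. As that library lay between the others of its group for all 10 genes, leaving it out could move these values little. The median was 0.48 without HFD+AAV-CON replicate 1 and 0.91 without HFD+AAV-CON replicate 2. In the edgeR fit without HFD+AAV-CON replicate 3, the unadjusted p was under 0.05 for 9 of the 10 genes. The share of all genes at that level is not given. Leaving out HFD+AAV-BCKDK replicate 2 gave 5 of the 10 called higher, against 1226 of 14427 genes. Leaving out HFD+AAV-CON replicate 2 gave 9, against 3555 of 14403, and the other libraries gave 6 or 7. Both comparisons use the HFD+AAV-CON libraries, so a low value there lowers the first difference and raises the second, and the 2 sets of values are given side by side without an overlap test.

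The third comparison set HFD+AAV-BCKDK against ND+AAV-CON, groups that differ in both diet and vector. None of the 10 genes was called by edgeR's quasi-likelihood test, none had an unadjusted p under 0.05, and DESeq2 and limma-voom also called 0. Of all genes tested, 2.45% were called, 1.27% lower and 1.18% higher, which is 347 genes, against 122 without HFD+AAV-CON replicate 3. The groups did not overlap for 4 genes (Coq2, Coq8a, Coq10a and Coq10b), against 27.7% of all genes. The median log2 fold change was -0.04 for the 10 genes and -0.03 for all genes. Log2 fold changes ran from -0.34 for Coq8a (SE 0.18) to 0.19 for Coq10b (SE 0.10).

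**Figure D1:**
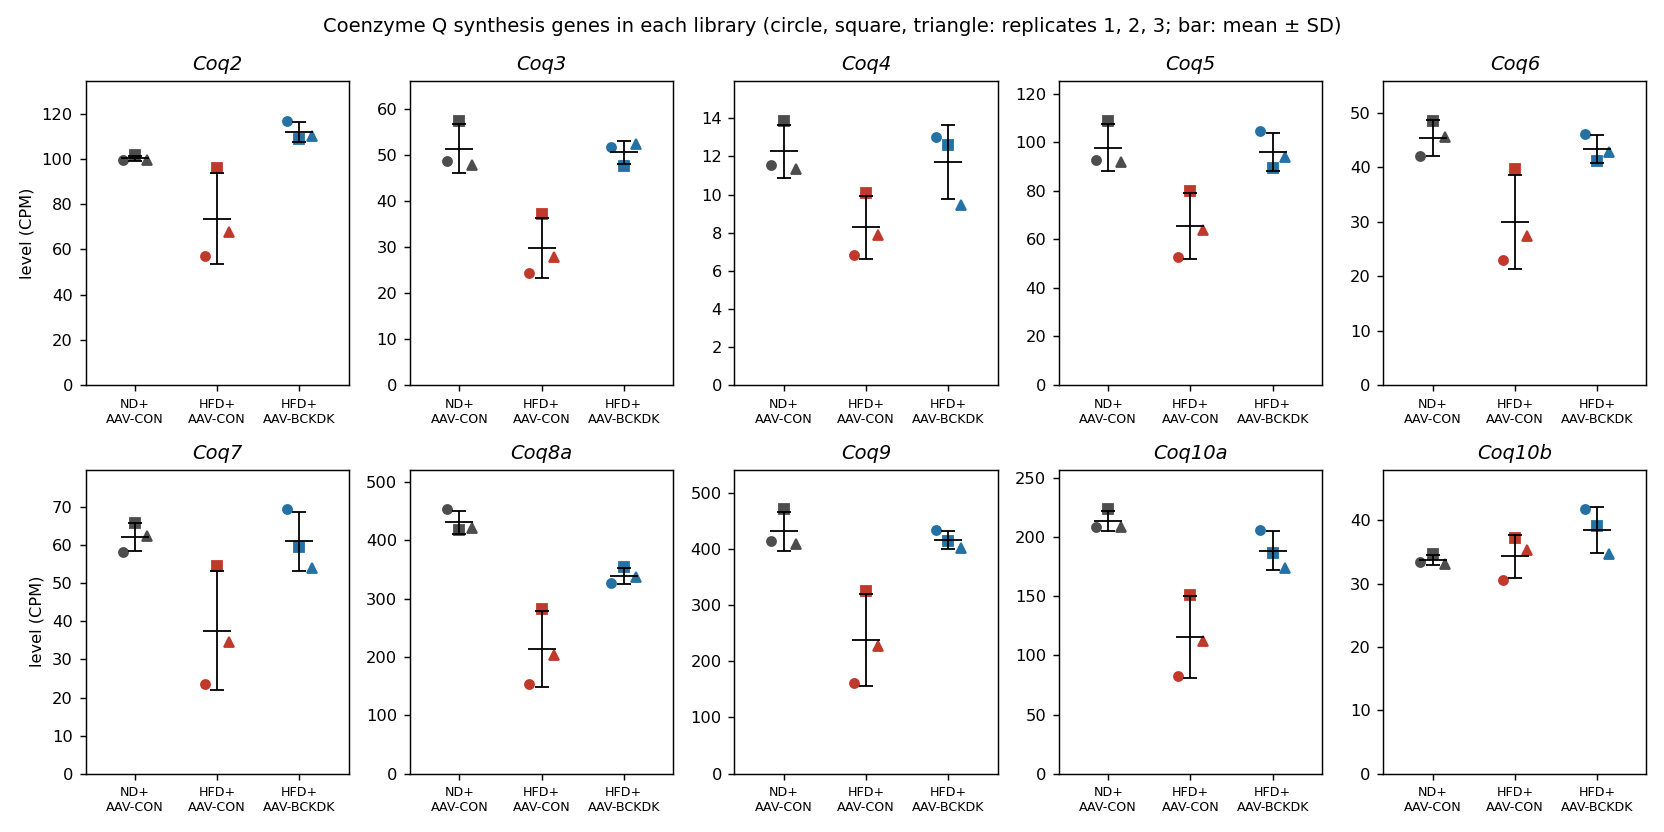
TMM-scaled CPM of each of the 10 genes (vertical axis, from 0) in the 3 groups, with 1 symbol per library and bars for mean ± SD (n = 3). HFD+AAV-CON is low and widely spread in 9 panels, with replicate 1 lowest and replicate 2 highest, while Coq10b lies between 30.6 and 41.7 CPM in all 9 libraries.

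Coq2 (chr5:100654723-100675140, minus strand) encodes the prenyltransferase that joins tail and ring. It was at 99.7, 102 and 99.5 CPM in ND+AAV-CON replicates 1 to 3, at 57.1, 96.2 and 67.6 in HFD+AAV-CON, and at 117, 109 and 110 in HFD+AAV-BCKDK. Every HFD+AAV-CON library was below every other library, with 96.2 CPM as its highest against 99.5 CPM as the lowest of ND+AAV-CON. Coq2 had the smallest log2 difference of the 9 called between the diets, -0.45 (SE 0.16, adjusted p = 0.0467), which was no longer called without HFD+AAV-CON replicate 3 (adjusted p = 0.142). Between the vectors the difference was 0.61 (SE 0.16, adjusted p = 0.0179), and 0.0618 was the adjusted p without that replicate. Coq2 was also the only one of the ring-assembly genes whose HFD+AAV-BCKDK libraries were all above ND+AAV-CON, by a log2 difference of 0.16 (SE 0.16, adjusted p = 0.688).

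Coq3 (chr4:21879673-21912162, plus strand) methylates the ring's oxygens. It was found at 48.8, 57.5 and 47.8 CPM in ND+AAV-CON, at 24.3, 37.1 and 27.9 in HFD+AAV-CON, and at 51.7, 47.7 and 52.4 in HFD+AAV-BCKDK. The HFD+AAV-CON libraries were separate from both other groups, which overlapped each other. The log2 difference was -0.79 between the diets (SE 0.15, adjusted p = 0.00309) and 0.77 between the vectors (SE 0.15, adjusted p = 0.00504). Coq3 was the only one of the 10 genes called between the vectors in each of the 9 fits that left out 1 library.

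Coq5 (chr5:115279666-115296972, plus strand) methylates a ring carbon. It stood at 92.6, 109 and 92.0 CPM in ND+AAV-CON, at 52.9, 79.9 and 63.7 in HFD+AAV-CON, and at 104, 89.4 and 93.9 in HFD+AAV-BCKDK. Again only the HFD+AAV-CON libraries were separate. The log2 difference was -0.58 between the diets (SE 0.14, adjusted p = 0.0114) and 0.55 between the vectors (SE 0.14, adjusted p = 0.0175), the latter with an adjusted p of 0.0553 without HFD+AAV-CON replicate 3.

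The hydroxylases Coq6 (chr12:84361657-84373796, plus strand) and Coq7 (chr7:118509659-118533356, minus strand) add oxygen to the ring. Coq6 was at 42.0, 48.6 and 45.5 CPM in ND+AAV-CON, at 22.9, 39.7 and 27.3 in HFD+AAV-CON, and at 46.2, 41.2 and 42.9 in HFD+AAV-BCKDK, with the middle group just separate. Its log2 difference was -0.60 between the diets (SE 0.17, adjusted p = 0.0202) and 0.54 between the vectors (SE 0.17, adjusted p = 0.0355). Without HFD+AAV-CON replicate 3 neither was called (adjusted p = 0.0729 and 0.102). Coq7 was at 58.3, 65.7 and 62.3 CPM in ND+AAV-CON, at 23.6, 54.5 and 34.5 in HFD+AAV-CON, and at 69.4, 59.6 and 54.1 in HFD+AAV-BCKDK. For Coq7 the highest HFD+AAV-CON library was above the lowest HFD+AAV-BCKDK library. Its SE was the widest of the 10, 0.25 in each comparison, around log2 differences of -0.73 (adjusted p = 0.0381) and 0.70 (adjusted p = 0.0482). The adjusted p of Coq7 was 0.112 and 0.124 without HFD+AAV-CON replicate 3.

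Coq9 (chr8:94838321-94854895, plus strand), the most abundant of the 10 per kilobase, binds lipid and works with Coq7. It was at 414, 470 and 409 CPM in ND+AAV-CON, at 162, 324 and 228 in HFD+AAV-CON, and at 433, 414 and 402 in HFD+AAV-BCKDK. The HFD+AAV-CON libraries were below all others and more widely spread (SD 81.5 CPM, against 34.0 CPM in ND+AAV-CON). The log2 difference was -0.86 between the diets (SE 0.21, adjusted p = 0.0101) and 0.81 between the vectors (SE 0.21, adjusted p = 0.0163). Without HFD+AAV-CON replicate 3 the adjusted p was 0.0400 between the diets and 0.0548 between the vectors.

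Coq4 (chr2:29787493-29797935, plus strand) is a member of the synthesis complex. It was the least abundant, at 11.5, 13.9 and 11.4 CPM in ND+AAV-CON, at 6.85, 10.1 and 7.87 in HFD+AAV-CON, and at 13.0, 12.6 and 9.47 in HFD+AAV-BCKDK. HFD+AAV-BCKDK replicate 3 was below the highest HFD+AAV-CON library, so these groups overlapped. The log2 difference was -0.57 between the diets (SE 0.17, adjusted p = 0.0257) and 0.50 between the vectors (SE 0.17, adjusted p = 0.0474), with adjusted p = 0.0827 and 0.117 without HFD+AAV-CON replicate 3. As Coq4 exons overlap Trub2 on the other strand, its level is uncertain.

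Coq8a (chr1:180165238-180199602, minus strand), also known as ADCK3, is an atypical kinase-like ATPase that supports the synthesis complex. It stood at 453, 417 and 421 CPM in ND+AAV-CON, at 153, 282 and 204 in HFD+AAV-CON, and at 327, 354 and 337 in HFD+AAV-BCKDK. All 3 groups were separate, with HFD+AAV-BCKDK in the middle. The log2 difference between the diets was the largest of the 10, -1.02 (SE 0.19, adjusted p = 0.00296), and that between the vectors was 0.67 (SE 0.18, adjusted p = 0.0208). Without HFD+AAV-CON replicate 3 the adjusted p was 0.0158 between the diets and 0.0655 between the vectors. Against ND+AAV-CON, Coq8a in HFD+AAV-BCKDK had a fold change of 0.788, a log2 difference of -0.34 (SE 0.18, adjusted p = 0.389). When these 2 groups were fitted alone, without the widely spread HFD+AAV-CON libraries in the estimate of error, it was called lower (log2 difference -0.33, adjusted p = 0.0171).

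Coq10a (chr10:128363100-128368997, minus strand) and Coq10b (chr1:55052770-55072702, plus strand) encode START-domain proteins that bind coenzyme Q. Coq10a was at 209, 223 and 208 CPM in ND+AAV-CON, at 82.2, 151 and 112 in HFD+AAV-CON, and at 206, 186 and 174 in HFD+AAV-BCKDK, so that, as for Coq8a, all 3 groups were separate. Its log2 difference was -0.89 between the diets (SE 0.19, adjusted p = 0.00531), 0.71 between the vectors (SE 0.19, adjusted p = 0.0170) and -0.18 between HFD+AAV-BCKDK and ND+AAV-CON (SE 0.18, adjusted p = 0.697). Between the vectors the adjusted p of Coq10a was 0.0539 without HFD+AAV-CON replicate 3. Coq10b was at 33.5, 34.6 and 33.1 CPM in ND+AAV-CON, at 30.6, 37.2 and 35.3 in HFD+AAV-CON, and at 41.7, 39.1 and 34.7 in HFD+AAV-BCKDK. The HFD+AAV-CON libraries of Coq10b lay on both sides of ND+AAV-CON. Its log2 differences were 0.03 between the diets (SE 0.10, adjusted p = 0.853), 0.16 between the vectors (SE 0.10, adjusted p = 0.203) and 0.19 between HFD+AAV-BCKDK and ND+AAV-CON (adjusted p = 0.368). These depended on scaling: with total-count scaling Coq10b was called higher between the diets (0.41, adjusted p = 0.00847) and lower between the vectors (-0.28, adjusted p = 0.0395).

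Total-count scaling moved the median log2 fold change of all genes to 0.40 between the diets and -0.47 between the vectors. It gave 5986 genes higher and 934 lower between the diets, against 3215 and 2919 with TMM, and 398 higher and 6867 lower between the vectors, against 2444 and 2966. Under it, Coq3, Coq8a, Coq9 and Coq10a were still called lower between the diets, and Coq3, Coq9 and Coq10a were still called higher between the vectors. Total-count scaling without mitochondrially encoded genes, chosen after seeing the data, gave medians of 0.14 and -0.15 for all genes. With it 8 of the 10 genes were called lower between the diets, against 2046 of all 14117 genes tested. Between the vectors 7 of the 10 were called higher, against 1588 of 14117. Coq10b was called in neither. The 9 genes other than Coq10b kept their direction in all 378 alternative values of the first and second comparisons, and 298 of these kept the call.

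**Figure D2:**
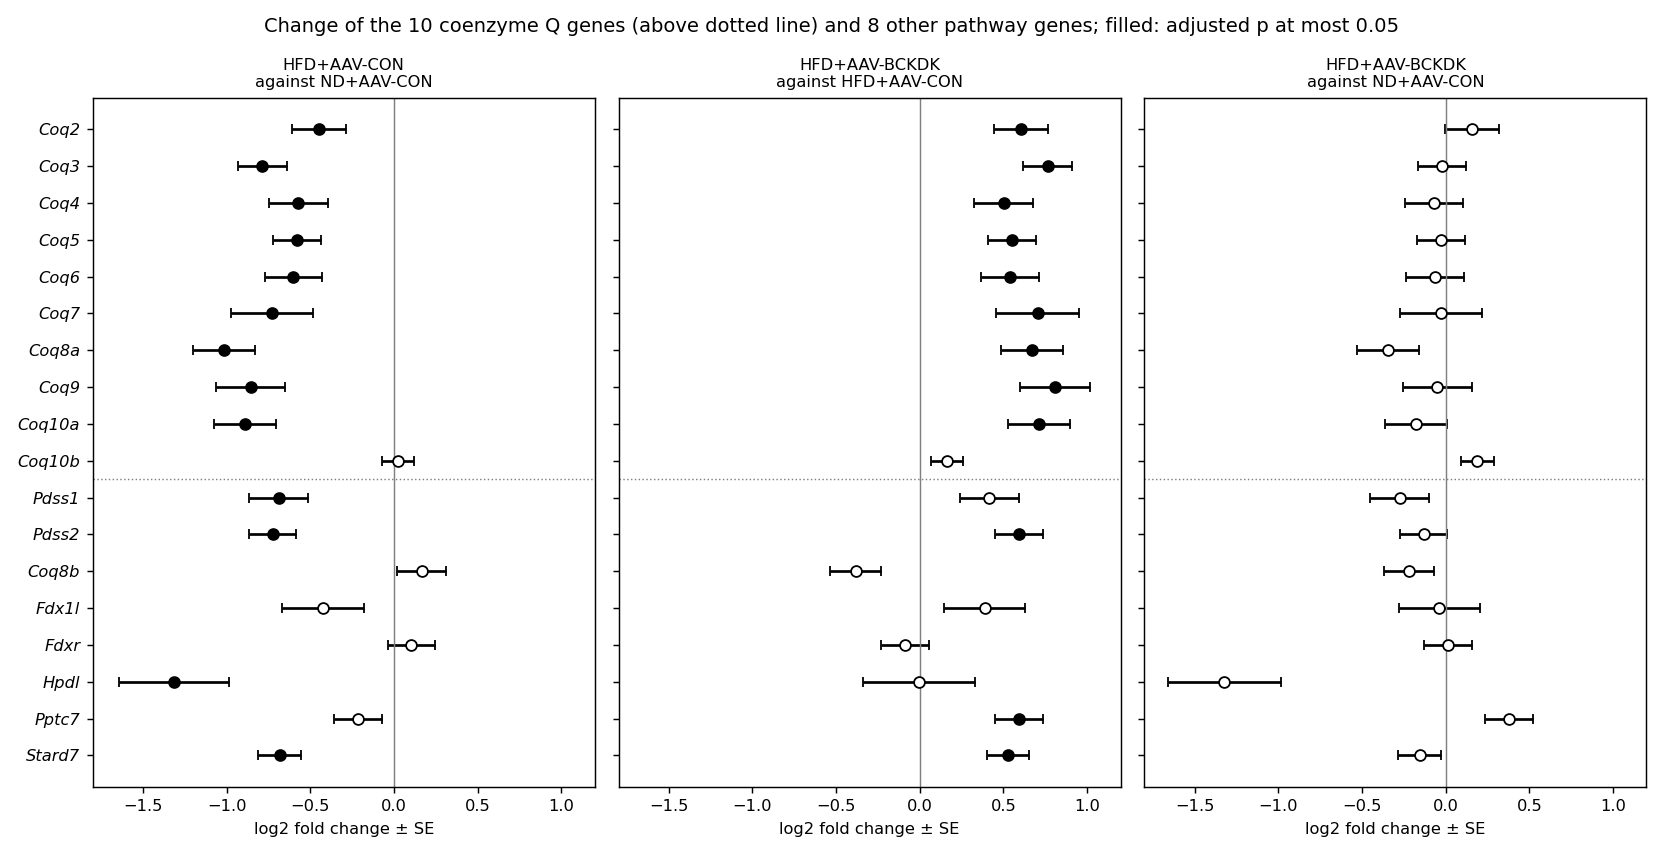
Log2 fold change ± SE (horizontal axis) from edgeR for the 10 coenzyme Q genes and 8 other genes of the pathway in the 3 comparisons, filled where the adjusted p was at most 0.05. In the left panel 9 of the 10 genes are filled and lie left of 0, in the middle panel the same 9 are filled and lie right of 0, and in the right panel no symbol is filled.

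Ratios of counts within a library do not depend on scaling. With 3 libraries against 3, the exact two-sided permutation test cannot give a p below 0.1, and 9 such tests were made. Coq10a had 6.23, 6.45 and 6.30 times the counts of Coq10b in ND+AAV-CON, 2.69, 4.07 and 3.18 times in HFD+AAV-CON and 4.94, 4.77 and 5.01 times in HFD+AAV-BCKDK. No group overlapped another, and HFD+AAV-BCKDK lay between the others. The log2 ratio differed by -0.95 between the diets, by 0.59 between the vectors and by -0.37 between HFD+AAV-BCKDK and ND+AAV-CON (exact permutation p = 0.1 each, 0.15 adjusted over the 9 tests). Without HFD+AAV-CON replicate 3 the first pair of differences was -0.94 and 0.57. The pair was -0.81 and 0.45 without HFD+AAV-CON replicate 1, and -1.11 and 0.75 without HFD+AAV-CON replicate 2.

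Coq8a had 66.5, 49.2 and 56.4 times the counts of its paralog Coq8b in ND+AAV-CON, 16.8, 39.8 and 21.9 times in HFD+AAV-CON and 51.7, 48.1 and 56.9 times in HFD+AAV-BCKDK. HFD+AAV-CON was separate from both other groups, which overlapped. The log2 ratio of Coq8a to Coq8b differed by -1.22 between the diets and 1.09 between the vectors (exact permutation p = 0.1 each, 0.15 adjusted). It differed by -0.13 between HFD+AAV-BCKDK and ND+AAV-CON (exact permutation p = 0.5). The first 2 differences were -0.95 and 0.82 without HFD+AAV-CON replicate 1, and -1.57 and 1.44 without HFD+AAV-CON replicate 2. The ratio of Pdss1 to Pdss2, the 2 subunits of the tail synthase, differed by 0.06 between the diets (exact permutation p = 0.8), by -0.19 between the vectors (p = 0.1) and by -0.13 between HFD+AAV-BCKDK and ND+AAV-CON (p = 0.6), all in log2 units.

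The ratio of Coq8a to Coq9 was looked at after their values were seen and has no test. In ND+AAV-CON it was 1.09, 0.888 and 1.03, in HFD+AAV-CON 0.945, 0.870 and 0.895, with 0.754, 0.855 and 0.838 for HFD+AAV-BCKDK. All HFD+AAV-BCKDK libraries were below all ND+AAV-CON libraries, by 0.30 in mean log2 ratio (-0.30 for HFD+AAV-BCKDK minus ND+AAV-CON).

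**Figure D3:**
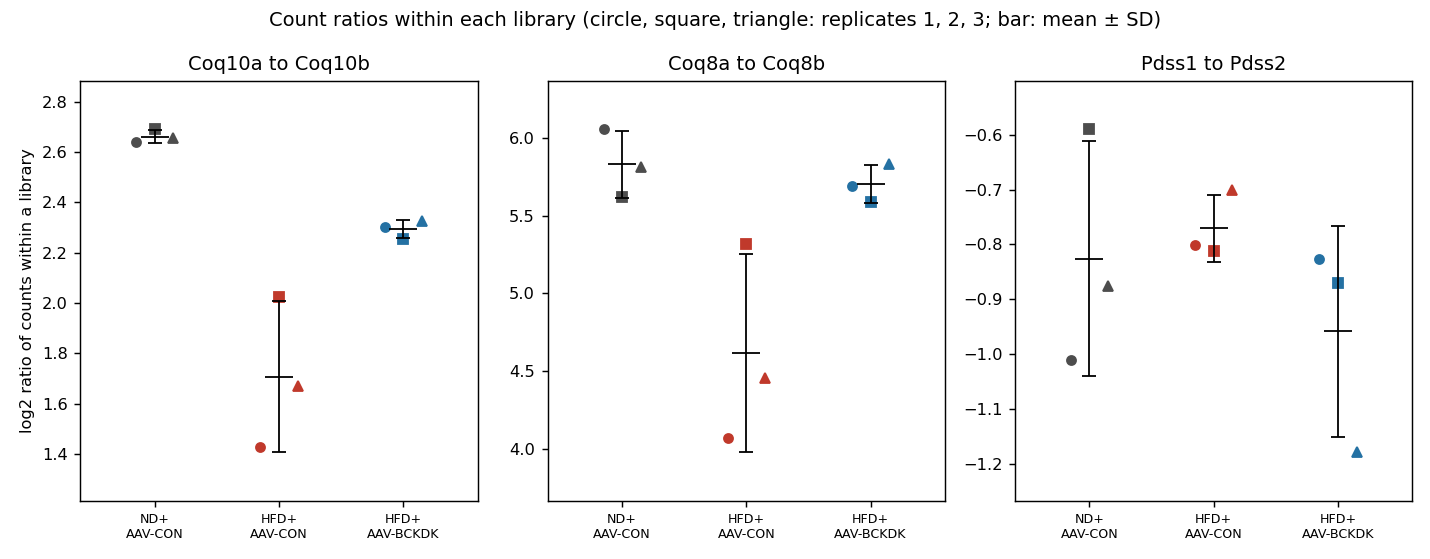
Log2 ratio of counts within each library (vertical axis) for Coq10a to Coq10b, Coq8a to Coq8b and Pdss1 to Pdss2 in the 3 groups, with 1 symbol per library and bars for mean ± SD (n = 3). The Coq10a to Coq10b panel has 3 separate groups, with means of 2.66, 1.71 and 2.29.

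The other genes of the pathway numbered 8, all tested. Between the diets 4 were called lower, 0 higher and 4 did not pass (median log2 fold change -0.55), and between the vectors 3 were called higher, 0 lower and 5 did not pass (median 0.40). With HFD+AAV-CON replicate 3 left out, 3 were called lower (Pdss1, Pdss2 and Stard7, but not Hpdl) and the same number higher (Pdss2, Pptc7 and Stard7). Pdss1 and Pdss2, which build the tail, had log2 differences of -0.69 (adjusted p = 0.0125) and -0.73 (adjusted p = 0.00405) between the diets. Exons of Pdss1 overlap Abi1 by 194 bases and A130006I12Rik by 207 bases on the opposite strand. The level of Pdss1 and its ratio to Pdss2 are therefore uncertain. Between the vectors Pdss2 was called higher (0.59, adjusted p = 0.0126) and Pdss1 did not pass (0.41, adjusted p = 0.0906). Stard7, a lipid transfer protein tied to coenzyme Q transport, was lower between the diets (-0.68, adjusted p = 0.00334) and higher between the vectors (0.53, adjusted p = 0.0133).

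Hpdl, a dioxygenase tied to the ring precursor, was at 1.61, 2.24 and 1.77 CPM in ND+AAV-CON, at 0.866, 0.781 and 0.596 in HFD+AAV-CON and at 1.02, 0.742 and 0.499 in HFD+AAV-BCKDK. Both HFD groups were below ND+AAV-CON and overlapped each other, which no member of the 10 showed. Its log2 difference was -1.32 between the diets (SE 0.33, adjusted p = 0.0113) and -1.32 between HFD+AAV-BCKDK and ND+AAV-CON (SE 0.34, adjusted p = 0.0805), with few counts behind it. Pptc7, a mitochondrial phosphatase, was at 96.6, 99.7 and 98.9 CPM in ND+AAV-CON, at 67.8, 108 and 78.7 in HFD+AAV-CON and at 127, 130 and 126 in HFD+AAV-BCKDK, which was above all other libraries. Pptc7 was called between the vectors (0.59, adjusted p = 0.0133) and not between the diets (-0.22, adjusted p = 0.248) or against ND+AAV-CON (0.38, adjusted p = 0.220). Coq8b had log2 differences of 0.16 between the diets (adjusted p = 0.393) and -0.38 between the vectors (adjusted p = 0.0690), neither called. Fdxr and Fdx1l (also Fdx2), the electron donors of the Coq6 step, were not called either, with 0.10 and -0.42 between the diets. Fdx1l shares 1034 exon bases with Gm38431 on its own strand, so its counts are uncertain. On the opposite strand, exons of Pptc7 overlap Rad9b by 1002 bases and those of Coq8b overlap Gm15567 by 455 bases. The levels of Pptc7 and Coq8b are uncertain too.

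Genes of the enzymes that use coenzyme Q were tested in the same fit. All 7 core subunits of complex I were lower between the diets (median -0.75) and all 7 were higher between the vectors (median 0.70), among them Ndufv2 (-0.81, adjusted p = 0.00896, and 0.78, adjusted p = 0.0138). Of 10 genes of complex III and cytochrome c, 8 were lower between the diets and 10 higher between the vectors. Of 10 dehydrogenases that pass electrons to coenzyme Q, 7 were lower between the diets, and 7 were higher and 1 lower (Gpd2, named after its values were seen) between the vectors. Prodh, proline dehydrogenase, had the log2 difference -1.82 between the diets (SE 0.25, adjusted p = 0.000988) and 0.74 between the vectors (adjusted p = 0.0422). Among the mevalonate and isoprenoid enzymes, which feed the tail, Acat2, Mvk and Fdps were lower between the diets, and Idi1, named after its values were seen, was lower between the vectors. Of 3 coenzyme Q reductases outside mitochondria, Aifm2 (FSP1) alone was lower between the diets (-0.41, adjusted p = 0.0317) and higher between the vectors (0.39, adjusted p = 0.0437). Fits that left out other libraries are not given for these lists. Fewer genes were called without HFD+AAV-CON replicate 3. Without it, edgeR called lower between the diets 2 of 7 complex I genes (Ndufs8 and Ndufv2), 1 of 10 of complex III and cytochrome c (Uqcrc2), 3 of 10 dehydrogenases (Prodh, Sdhb and Sdhd), Mvk and Fdps of the mevalonate enzymes, and 0 of 3 reductases. Between the vectors it called 2 of 7 complex I genes (Ndufs1 and Ndufv2) and none of complex III and cytochrome c, the dehydrogenases, the mevalonate enzymes or the reductases. At an unadjusted p under 0.05 those between the vectors numbered 7 of 7 for complex I and 10 of 10 for complex III and cytochrome c. They numbered 8 of 10 for the dehydrogenases and 2 of 3 for the reductases, and those between the diets 1 of 3 for the reductases. The share of all genes at that level is not given.

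Per 100 counts of the complex I core subunits, the 10 genes had 46.4 to 48.2 counts in ND+AAV-CON, 43.8 to 45.6 in HFD+AAV-CON and 42.7 to 43.9 in HFD+AAV-BCKDK. Per 100 counts of 10 cardiomyocyte markers they had 4.18 to 4.34, 3.54 to 3.96 and 4.08 to 4.40 counts. Relative to complex I the ranges of HFD+AAV-CON and HFD+AAV-BCKDK overlapped and both lay below ND+AAV-CON. Per 100 counts of complex III and cytochrome c the values were 23.9 to 26.6, 23.5 to 25.3 and 23.2 to 23.8, so HFD+AAV-CON overlapped ND+AAV-CON. Per 100 counts of the dehydrogenases they were 46.0 to 47.4, 42.0 to 44.8 and 41.1 to 41.6, with no overlap. Coq8a, with the largest difference between the diets, is part of these sums, and ratios without it were not computed. The summed CPM of the 10 genes was 1430 to 1542, 616 to 1112 and 1309 to 1410 in the 3 groups.

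The genes whose profile over the 9 libraries was most like the mean of the 10 were sought among 11158 genes by Pearson correlation of log2 CPM. They were Myl2, a ventricular myosin light chain (r = 0.999), Mdh2, mitochondrial malate dehydrogenase (0.998), Uqcrc2 of complex III (0.998), Ndufa9 of complex I (0.998) and Cox5a of complex IV (0.998). Each of the 10 genes except Coq10b had a correlation with the mean of the other 9 of 0.930 (Coq8a) to 0.997 (Coq9), and Coq10b had 0.491. These values describe 9 libraries that share groups, depth and scaling, and have no p.

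**Figure D4:**
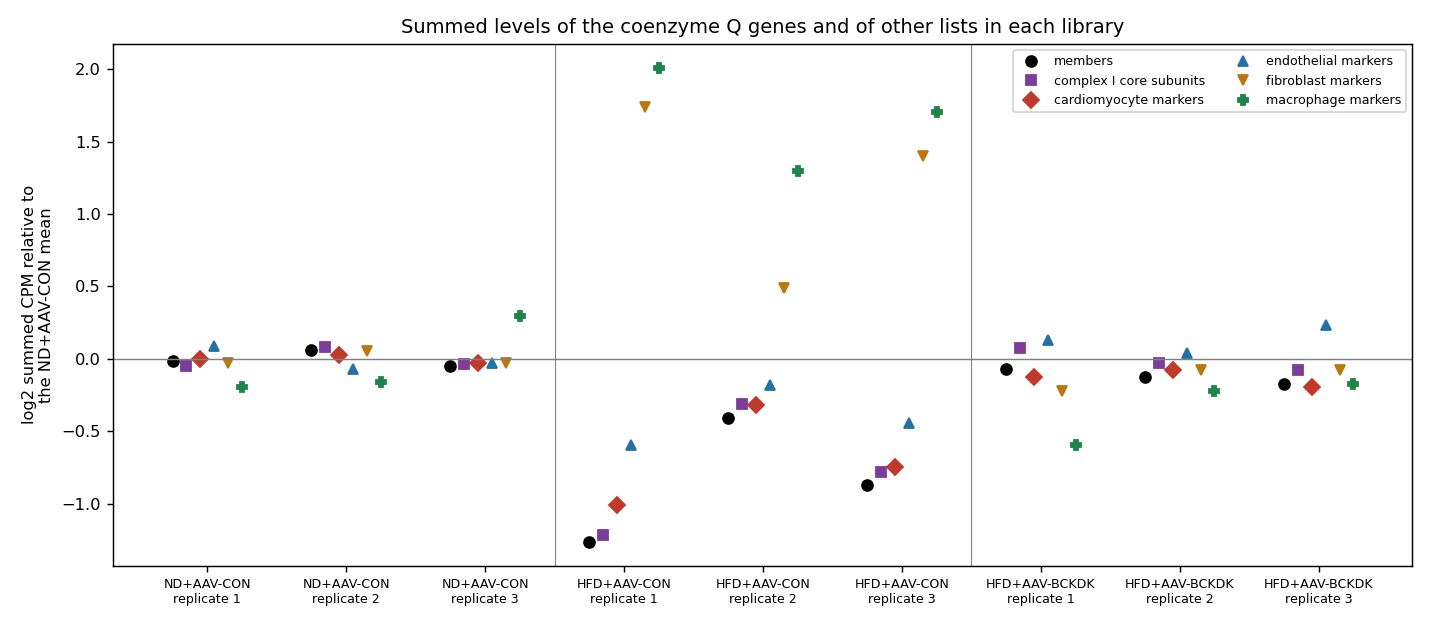
Summed CPM of the 10 genes (members) and of 5 other gene lists in each library, as log2 relative to the ND+AAV-CON mean (vertical axis), with 1 symbol per list. In the HFD+AAV-CON libraries the coenzyme Q genes, complex I and cardiomyocyte markers lie low together and the fibroblast and macrophage markers lie high. Endothelial markers also lie below ND+AAV-CON there (488 to 654 CPM, against 705 to 786 CPM).

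Markers of cell types moved in the same comparisons. Of 10 cardiomyocyte markers, 7 were lower between the diets (among them Tnni3, -0.95, adjusted p = 0.0141), 1 was higher (Myh7, named after its values were seen) and 2 did not pass. Their summed level was 34253 to 35551 CPM in ND+AAV-CON, 17390 to 28055 in HFD+AAV-CON and 30507 to 33157 in HFD+AAV-BCKDK, and 6 were higher between the vectors. Of 8 fibroblast markers 6 were higher between the diets and 7 lower between the vectors, with sums of 1326 to 1408, 1897 to 4518 and 1159 to 1284 CPM. All 8 macrophage markers were higher between the diets and lower between the vectors, with sums of 660 to 924, 1849 to 3032 and 498 to 666 CPM. All 4 T and NK cell markers were also higher between the diets and lower between the vectors, with sums of 1.19 to 20.4, 51.4 to 88.2 and 0.853 to 6.43 CPM. Of 6 endothelial markers 4 were lower between the diets and 6 higher between the vectors, and all 4 erythroid markers did the same. Of 3 smooth muscle markers 1 was lower between the diets (Acta2) and 0 were called between the vectors. Atrial, skeletal muscle and adipocyte markers summed to at most 2.65 CPM in any library, and in 1 or more libraries all 3 adipocyte markers were at 0. Without HFD+AAV-CON replicate 3, called between the diets were 1 cardiomyocyte marker (Pln, lower), 4 fibroblast, 8 macrophage and 3 T and NK cell markers (higher), and 2 endothelial, 4 erythroid and 1 smooth muscle markers (lower). Between the vectors 4 fibroblast, 8 macrophage and 4 T and NK cell markers were then called lower, and 3 endothelial and 1 erythroid markers higher. Of the cardiomyocyte markers edgeR called 0, with 7 at an unadjusted p under 0.05. The share of all genes at that level is not given.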

How the data were processed

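Left ventricular RNA of 9 mice (3 per group) was sequenced as mRNA libraries. The deposited values are raw counts per gene, which the authors did not normalize, in 1 column for each library. HISAT2 2.0.5 and mm10 are named per the submitters' processing notes, and which tool and annotation made the counts, and whether it used strand, is not given in the sources used here. Of the table's 26178 entries, 4142 were loci without a gene name, with 1.02% to 6.01% of a library's counts, and they entered neither library sizes nor tests.

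The fit used edgeR 4.0.16 (R 4.3.3): filterByExpr by group, TMM scaling, 1 quasi-likelihood fit over all 9 libraries, and Benjamini-Hochberg adjustment over 14160 genes, with a call at an adjusted p of at most 0.05. An adjusted p is from this test unless another tool is named. SE is that of the log2 fold change, and the common biological coefficient of variation was 18.6%. Counts were lowest for Coq4 among the 10 genes and for Hpdl among the 8 other pathway genes. The SE between the diets was 0.17 for Coq4, against 0.25 for Coq7, and 0.33 for Hpdl. Count ratios were compared with exact two-sided permutation tests (scipy 1.17.1). The scripts were tested on simulated data. Alternatives were other scalings (RLE, upper quartile, total count), other filters, mitochondrially encoded genes left out, unnamed loci kept, DESeq2 1.42.0, limma-voom (limma 3.58.1), the replicate number as a block, the 2 compared groups fitted alone, and each library left out. Total-count scaling without mitochondrially encoded genes and the counts of the other lists without 1 library were chosen after seeing the data. Counts of replicates differed by more than sampling noise in every pair (at 14.9 or more in chi-square over its degrees of freedom). Each was kept as 1 replicate. A library mixed from 2 others would also differ from each, so this check cannot show that replicates are independent. In HFD+AAV-CON the value was 273 for replicates 1 and 2, 66.5 for 1 and 3 and 76.2 for 2 and 3. Whether HFD+AAV-CON replicate 3 is independent of the other libraries of its group was not tested. Equal replicate numbers did not pair the libraries: the correlations of their deviations ran from -0.22 to 0.19.

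The genes, lists and tests were chosen with earlier results of these data known. All 10 coenzyme Q genes and the 8 other pathway genes are described. From each other list the 4 genes with the smallest p between the diets could be named, and any other name is marked as chosen after its values were seen. Of the mevalonate list, 1 gene is not reported here.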

Additional observations from a re-analysis of the deposited data

Results flagged for a closer look

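Unnamed loci, which were left out of the comparisons above, held a signal in 1 library. Loci whose symbol field reads 0 (555 entries) had 206343 counts in HFD+AAV-CON replicate 3 and 0 in each of the other 8 libraries. At the other unnamed loci that library had 148190 counts, against 2099338 to 2842321 in the others. The coenzyme Q genes are all annotated, so none of these counts enters their levels. With the unnamed loci kept in the fit, 7 of the 10 genes were called lower between the diets, against 9. Between the vectors 7 were called higher, against 9. Of the 15354 genes and loci then tested, 2665 were called lower between the diets and 2125 higher between the vectors.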

How the results depend on the processing

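Of 630 alternative values for single coenzyme Q genes, 537 kept direction and call, 80 lost the call, 2 gained it and 11 changed sign. With total-count scaling, 5 of the 10 genes were called between the diets and 4 between the vectors, against 9 and 9, and the log2 fold change of Coq10b between the vectors was -0.28, of Pptc7 between the diets 0.15, of Pdss1 and Fdx1l between the vectors -0.017 and -0.032. Hpdl between the vectors was 0.0070 with RLE and 0.0023 with upper-quartile factors. Fdxr between HFD+AAV-BCKDK and ND+AAV-CON was -9.8e-05 with upper-quartile factors, -0.045 with total-count scaling and -0.0031 with limma-voom. Apart from that of Coq10b, which was called (adjusted p = 0.0395), these values were not called, and the cause was not tested.

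Between HFD+AAV-BCKDK and ND+AAV-CON, 1 of the 10 genes (Coq8a) was called when the 2 groups were fitted alone. In that comparison 347 genes were called in all, against 136 with total-count scaling, 902 with DESeq2, 873 with the 2 groups alone and 107 with the replicate block. The replicate numbers do not pair the libraries by design. With the replicate block, 9, 9 and 0 of the 10 genes were called in the 3 comparisons, as without it, and 5614 and 4922 of all genes between the diets and between the vectors.

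Leaving out 1 library gave 5 to 9 of the 10 genes called between the diets, 1 to 9 between the vectors and 0 against ND+AAV-CON. For all genes it gave 4050 to 7325, 2847 to 6978 and 43 to 744. Log2 fold changes that changed sign ran from -0.039 to 0.098 (Coq10b between the diets), -0.198 to 0.0045 (Fdxr) and -0.287 to 0.237 (Hpdl) between the vectors. Against ND+AAV-CON they ran from -0.071 to 0.067 for Coq3, -0.154 to 0.063 for Coq4, -0.094 to 0.056 for Coq5, -0.128 to 0.054 for Coq7, -0.087 to 0.017 for Coq9, -0.211 to 0.121 for Fdx1l and -0.097 to 0.076 for Fdxr. The log2 ratio of Pdss1 to Pdss2 between the diets ran from -0.037 to 0.173. With 3 libraries a group, no ratio test could reach 0.05, and the sources used here do not give cages, lots or extraction days.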
